A study of Mus musculus with 26 samples.

Results

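A table of RNA-seq counts for 35976 genes in 26 libraries of mouse liver tumour and control liver was used, and 8 of those genes are described here: Dnah1, Ttc41, Rragd, Cdh18, Ralgps2, Kiss1r, Scube3 and Ehbp1l1. The 8 were chosen from the measured counts themselves, for a small unadjusted p between tumours started by the Cyp1a2 driver and tumours started by the Gls2 driver, once libraries with very high titin (Ttn) counts had been left out. That difference is therefore a description and is given with no test. The name given to the set, markers of the zone of origin, goes beyond these data: edgeR's quasi-likelihood test called 0 of 16898 genes between the drivers after Benjamini-Hochberg adjustment at 0.05 without the Ttn-high libraries, DESeq2 called 62 and limma-voom 4. The 8 are called candidate genes below.

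The liver lobule has a pericentral zone around the central vein, where hepatocytes express Cyp1a2, and a periportal zone around the portal tract, where they express Gls2. Wnt signalling from the central vein stabilises beta-catenin, which with TCF/LEF factors drives the pericentral programme. Deleting exon 3 of Ctnnb1 gives a beta-catenin that escapes degradation, and ARID2 belongs to PBAF, a complex that remodels chromatin, and is lost in some liver cancers. A CreERT2 allele cuts loxP sites only after tamoxifen, and only in the cells that use the promoter driving it.

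The Cyp1a2_CA group (titles starting CAB) held 10 libraries from tumours with the genotype Cyp1a2-CreERT2, Ctnnb1(ex3)fl/+ and Arid2fl/fl. The Gls2_CA group (titles starting GAB) held 9 libraries with Gls2-CreERT2 and the same 2 floxed alleles. A single Cyp1a2_C library, CB6-L, carried Cyp1a2-CreERT2 and Ctnnb1(ex3)fl/+ with no floxed Arid2 allele named. The tumour mice were of mixed C57BL/6J and Swiss Webster stock, received tamoxifen at postnatal day 28 and were followed for 6 to 12 months. The 6 WT livers came from C57BL/6J mice given AAV-Cre and kept on normal chow for up to 12 months, so WT and tumour samples differed in strain, virus, tamoxifen and genotype together. Titles repeat some numbers, which were read as animal numbers: CAB28 gave 2 libraries and GAB242 and GAB294 gave 3 each, and libraries with the same number were summed, leaving 9 Cyp1a2_CA and 5 Gls2_CA animals. Nothing else in the labels says which samples are separate animals, so the spread between them may be partly technical, and a whole-tumour library cannot tell fewer cells of a type from less RNA per cell.

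Total counts were 37051941 to 49254470 per Cyp1a2_CA library, 36992043 to 42865787 per Gls2_CA library, 41038144 in CB6-L and 13486530 to 16975288 per WT library. Libraries CAB44-L, CAB225-L, GAB235-S and CB6-L held over 1000 Ttn CPM (counts scaled to a common library total, TMM-adjusted), and the same 4 were selected at 100 and at 5000 CPM. Leaving them out left 7 Cyp1a2_CA and 4 Gls2_CA animals. Summed hepatocyte markers ran from 83100 to 104000 CPM in WT, from 11500 to 50400 in Cyp1a2_CA and from 4580 to 27600 in Gls2_CA, and stood at 515 in CB6-L. These sums, too, set tumour columns beside WT columns, whose counts differ in the way set out in the next paragraph. Summed striated muscle markers of the animals that stayed ran from 2.79 to 105 CPM in Cyp1a2_CA and from 4.63 to 5.38 in Gls2_CA. In the fit on counts as deposited, Arid2 was lower than WT in both drivers (log2 fold change -1.18, adjusted p = 6.2e-08, and -0.97, adjusted p = 0.00023), but with the allowance for transcript number set out next the values were 0.01 (adjusted p = 0.96) and 0.36 (adjusted p = 0.12), so the deposited fold gives no clear check of the genotype.

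The tumour columns and the WT columns stood in different relations to the annotation, which touches every WT comparison below. Across 15622 genes the log2 fold change of Cyp1a2_CA over WT rose with the gene's number of RefSeq transcripts (Spearman rho 0.74), and across 13984 genes the same was seen for Gls2_CA over WT (rho 0.77). Genes with 1 transcript had a median log2 fold change of -1.33 and -1.40 in the 2 comparisons, and genes with over 16 transcripts had 2.99 and 2.93. Between the 2 drivers, which compares tumour columns only, rho was 0 over 15686 genes without the Ttn-high libraries. Among genes with 4 transcripts, 34.2% of tumour counts under 200 and 25.6% of such WT counts were divisible by 4. The tumour share was also the higher of the pair for genes with 3 and with 5 to 8 transcripts, but not for those with 2, where it was 59.7% against 61.5% in WT. The candidate genes have many transcripts (Dnah1 4, Ttc41 24, Rragd 2, Cdh18 8, Ralgps2 23, Kiss1r 7, Scube3 5 and Ehbp1l1 14, with a median of 7.5 against 3 over genes tested). How the columns were counted is not given in the sources used here, so for a fold over WT a difference in counting and a difference in expression cannot be told apart. Each fold over WT is therefore given on the counts as deposited and again with an offset, a smooth trend on transcript number removed from each library, which sets the typical gene of every transcript number to no change. That second fit was chosen after seeing the data.

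**Figure D1:**
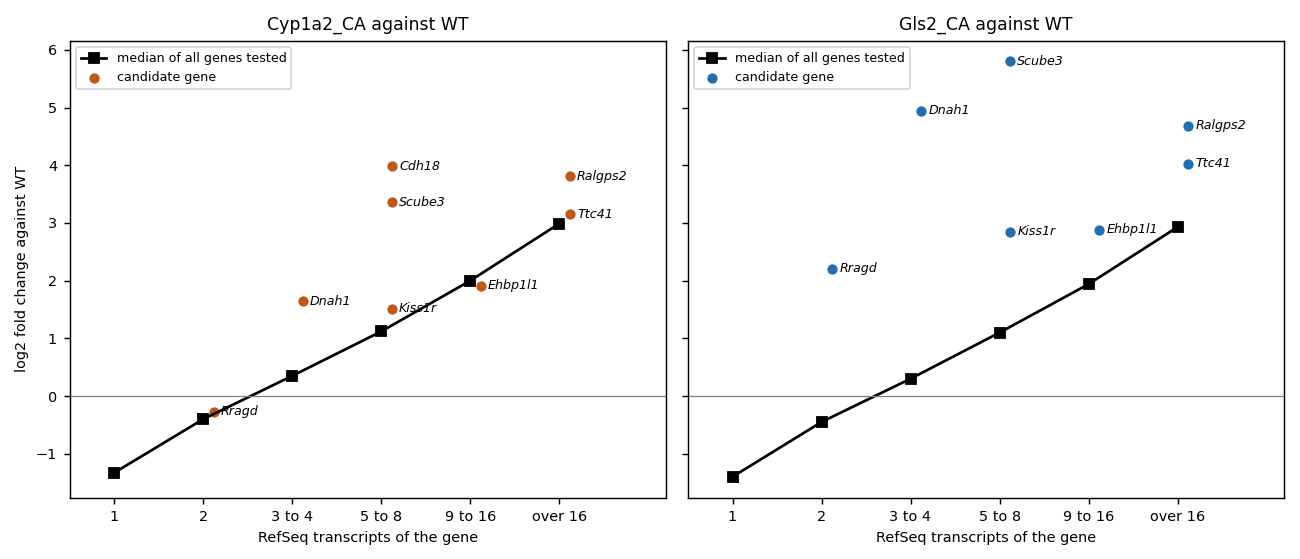
Median log2 fold change over WT of all genes tested (black squares), by the gene's number of RefSeq transcripts, with the candidate genes as points, for Cyp1a2_CA (left) and Gls2_CA (right). The black line climbs from -1.33 to 2.99 on the left and from -1.40 to 2.93 on the right; Ttc41, Ehbp1l1, Kiss1r and Rragd lie near it on the left, and all 7 tested candidate genes lie above it on the right.

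The candidate genes sit on 7 chromosomes (mm10, GENCODE M21): Ralgps2 at chr1:156804166-156939626, Rragd at chr4:32983037-33022180, Kiss1r at chr10:79916971-79922273, Ttc41 at chr10:86705811-86776844, Dnah1 at chr14:31260375-31323896, Cdh18 at chr15:22549022-23474418, Scube3 at chr17:28142141-28174854 and Ehbp1l1 at chr19:5707376-5726317. All 8 are protein-coding. Kiss1r and Ttc41 share chromosome 10 with Gls2, which starts at 128194457, and Cdh18 shares chromosome 15 with Arid2, which starts at 96287518; whether the strain of origin around these edited loci moves with a gene's level was not tested. RefSeq start-site windows of 300 bases (250 before the start and 50 after it, GRCm38.p6, which is mm10) were found for all 8 genes, 10 windows in all. Their number of CG dinucleotides ranged from 1 in Ttc41 to 52 in Ralgps2, beside a median of 7 over 32851 windows. The windows of Ttc41 and Ralgps2 are printed as those ends of the range, and that of Cdh18 as the only candidate gene that was higher in Cyp1a2_CA tumours; CG dinucleotides are in capitals. Ttc41 is on the plus strand at chr10:86712515-86712814, Cdh18 on the plus strand at chr15:23036213-23036512 and Ralgps2 on the minus strand at chr1:156939338-156939637, and each reads 5′ to 3′ along its gene. The RefSeq starts of Ttc41 and Cdh18 lie inside the longer GENCODE gene.
Ttc41: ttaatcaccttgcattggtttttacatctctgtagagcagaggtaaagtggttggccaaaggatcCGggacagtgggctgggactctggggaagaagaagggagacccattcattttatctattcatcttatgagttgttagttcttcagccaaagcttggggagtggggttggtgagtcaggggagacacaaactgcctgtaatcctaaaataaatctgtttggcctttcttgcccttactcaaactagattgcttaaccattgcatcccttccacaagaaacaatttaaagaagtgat
Cdh18: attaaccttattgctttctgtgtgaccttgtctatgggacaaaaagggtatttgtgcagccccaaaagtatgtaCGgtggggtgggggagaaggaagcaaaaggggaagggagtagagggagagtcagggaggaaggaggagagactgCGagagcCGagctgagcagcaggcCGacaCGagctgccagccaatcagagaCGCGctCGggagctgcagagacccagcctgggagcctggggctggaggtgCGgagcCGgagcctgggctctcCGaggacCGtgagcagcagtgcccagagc
Ralgps2: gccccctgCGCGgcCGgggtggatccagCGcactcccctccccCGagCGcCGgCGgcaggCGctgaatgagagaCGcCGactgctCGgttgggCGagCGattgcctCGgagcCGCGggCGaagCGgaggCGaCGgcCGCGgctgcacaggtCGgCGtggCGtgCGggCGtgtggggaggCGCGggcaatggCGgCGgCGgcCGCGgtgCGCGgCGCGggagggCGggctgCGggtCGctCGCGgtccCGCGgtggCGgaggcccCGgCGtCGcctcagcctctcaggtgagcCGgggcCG

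The 3 windows differ in base composition: Ttc41 has 1 CG dinucleotide, Cdh18 has 12 and Ralgps2 has 52. The other windows held 6 (Rragd), 15 (Dnah1), 20 (Scube3), 23 (Kiss1r) and 33 and 27 (Ehbp1l1) of them. Both strands were searched for short motifs. The TCF/LEF core CTTTGA was present in 1 candidate gene, Rragd, 198 bases upstream of the start, and in 16.0% of all windows, and CTTTGT was present in 0 of 8 and in 18.7% of all windows. The E-box CACGTG was present in 0 of 8 and in 7.2% of all windows, the CAAT box CCAAT in 2 of 8 and 37.4%, and the GC box GGGCGG in 4 of 8 and 35.7%.

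Of the 8 candidate genes, 7 were higher in Gls2_CA and 1, Cdh18, was higher in Cyp1a2_CA. By unadjusted p without the Ttn-high libraries they lay within the first 10 of 16898 genes, of which 6.02% had an unadjusted p under 0.05. Just inside the choice, Ehbp1l1 (rank 10) averaged 24.8 CPM in Cyp1a2_CA and 57.1 CPM in Gls2_CA, and just outside it Col12a1 (rank 11) averaged 11.8 and 4.93 CPM. Without the Ttn-high libraries the animals of the 2 drivers did not overlap for 7 of the 8 candidate genes, the exception being Scube3, and for 1.1% of genes tested. With every animal they did not overlap for 2 of the 8, Cdh18 and Ralgps2, and for 0.0876% of 17129 genes. These counts follow from the way the genes were chosen.

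**Figure D2:**
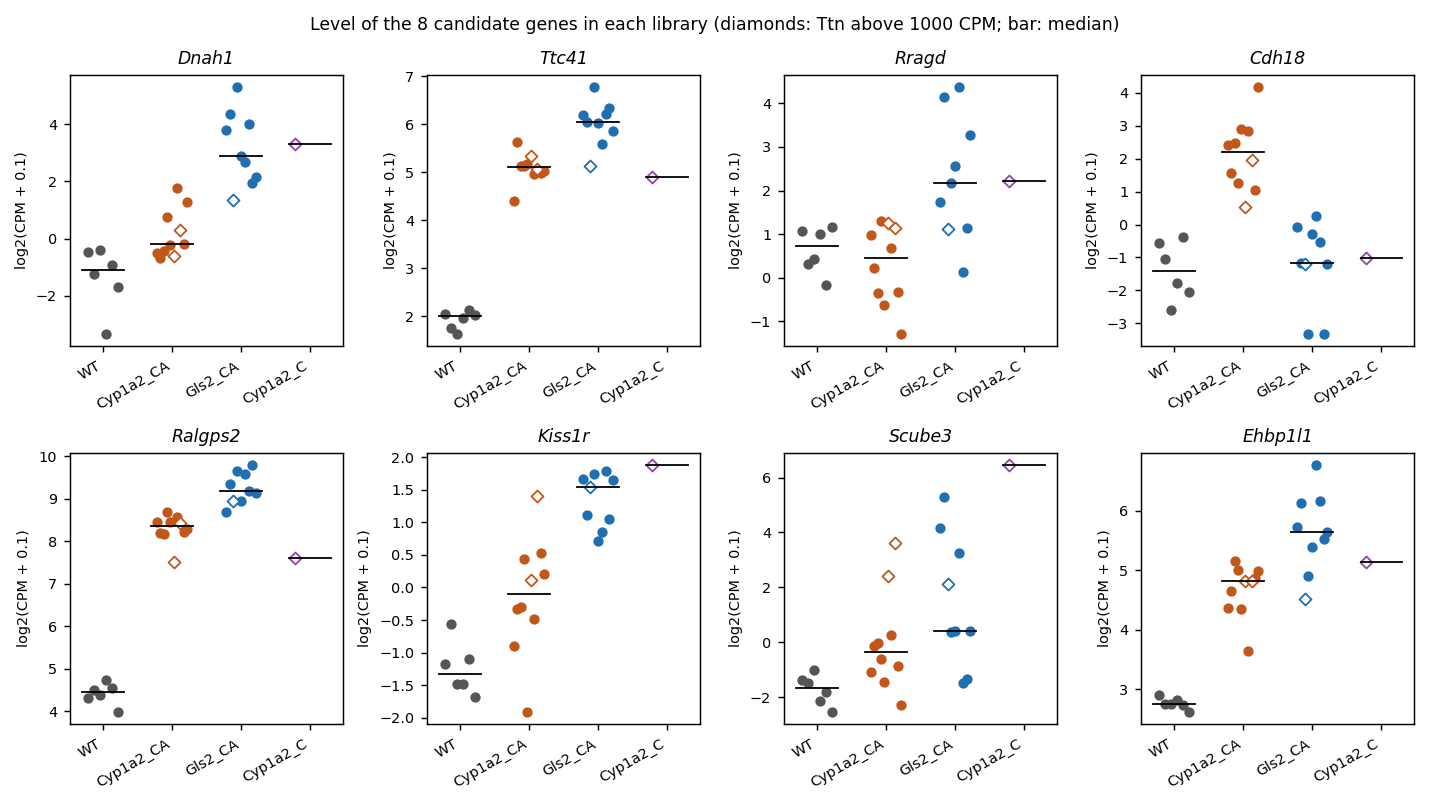
Level of each candidate gene in every library, as log2(CPM + 0.1), by group (WT, Cyp1a2_CA, Gls2_CA and Cyp1a2_C); bars mark medians and diamonds mark the 4 Ttn-high libraries. Cdh18 stands higher in Cyp1a2_CA and the other genes higher in Gls2_CA, while the Gls2_CA diamond lies among the Cyp1a2_CA points for Dnah1, Ttc41, Rragd, Scube3 and Ehbp1l1.

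Dnah1 encodes an axonemal dynein heavy chain, a motor of the inner arms that bend motile cilia and sperm tails. Its level in Gls2_CA animals was 14 CPM in GAB18, 21.2 in GAB229, 2.42 in GAB235, 18.2 in GAB242 and 8.01 in GAB294. In Cyp1a2_CA animals it ran from 0.54 to 3.43 CPM with a median of 0.80, and in WT livers from 0 to 0.657 CPM with a median of 0.375. All Gls2_CA animals lay above every WT liver, and 4 of the 5 lay above every Cyp1a2_CA animal; GAB235, the Ttn-high animal, lay inside the Cyp1a2_CA range. The means were 12.8 ± 7.6 CPM (SD, n = 5) in Gls2_CA and 1.25 ± 0.996 CPM (SD, n = 9) in Cyp1a2_CA, a difference of -3.33 on the log2 scale (Cyp1a2_CA minus Gls2_CA, SE 0.54) in the fit. WT livers rested on 0 to 11 reads for Dnah1. The antisense gene Gm35823 shares 551 exon bases with Dnah1 and was near 0 in every group. Summed markers of ciliated cells were at 6.94 to 8.8 CPM in WT, 19.5 to 35.4 CPM in Cyp1a2_CA and 17.4 to 46.5 CPM in Gls2_CA, with Tekt1 at 0 in both tumour groups; their part in the Dnah1 levels was not tested.

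Ttc41 encodes a tetratricopeptide-repeat protein. The Gls2_CA animals had 75.6 CPM in GAB18, 68.1 in GAB229, 34.7 in GAB235, 76.3 in GAB242 and 72.2 in GAB294. In Cyp1a2_CA it ran from 21.1 to 50 CPM with a median of 33.1, and WT livers from 3.02 to 4.28 CPM with a median of 3.9. The 4 Gls2_CA animals without high Ttn lay close together and above every Cyp1a2_CA animal, and GAB235 lay near the Cyp1a2_CA median. The fitted difference between drivers was -0.88 (SE 0.196), and -1.08 without the Ttn-high libraries, a fold of 2.11. Hsp90b1, an endoplasmic reticulum chaperone gene that starts 302 bases away on the other strand, was at 1080 CPM in WT and at 302 and 334 CPM in Cyp1a2_CA and Gls2_CA.

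Rragd encodes RagD, a lysosomal small GTPase that recruits mTORC1 when amino acids are present. In Gls2_CA the level was 3.29 CPM in GAB18, 18.1 in GAB229, 2.06 in GAB235, 10.4 in GAB242 and 4.68 in GAB294. The Cyp1a2_CA animals lay between 0.319 and 2.29 CPM with a median of 1.41, and WT livers from 0.795 to 2.15 CPM with a median of 1.59. Cyp1a2_CA animals and WT livers thus covered a common range, with 1 of 9 animals above every WT liver, while 4 of 5 Gls2_CA animals lay above it. The fitted difference between drivers was -2.50 (SE 0.514), -3.05 without the Ttn-high libraries and -1.91 without GAB229, the highest animal. Of the 2 neighbours of Rragd, Ube2j1, 9236 bases away on the same strand, differed by 0.10 between drivers without the Ttn-high libraries. Ankrd6, 32196 bases away on the other strand, differed by -1.18.

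Ralgps2 encodes an exchange factor that loads the small GTPase Ral with GTP. Its level in Gls2_CA animals was 419 CPM in GAB18, 670 in GAB229, 489 in GAB235, 702 in GAB242 and 683 in GAB294. Cyp1a2_CA animals ran from 182 to 390 CPM with a median of 317, and WT livers from 15.8 to 26.7 CPM with a median of 21.8. By animal, the groups stood in 3 separate ranges, with GAB235 included and GAB18 nearest to Cyp1a2_CA. By library the 2 drivers met, with CAB28-S and GAB18-M both at 409 CPM. The means were 593 ± 129 CPM (SD, n = 5) and 319 ± 63 CPM (SD, n = 9), a fitted difference of -0.88 (SE 0.18). Divided by exon length, Ralgps2 had the highest level of the 8 candidate genes in every group, 49 CPM per kilobase in Gls2_CA and 26.4 in Cyp1a2_CA. Angptl1 lies inside Ralgps2 on the other strand and shares 0 exon bases with it.

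Cdh18 encodes a type II cadherin, a calcium-dependent adhesion protein known mainly from the nervous system. Gls2_CA animals had little of it, 0.870 CPM in GAB18, 0.357 in GAB229, 0.336 in GAB235, 0.608 in GAB242 and 0.323 in GAB294. The Cyp1a2_CA range was 1.34 to 18.6 CPM with a median of 5.25, the lowest being the Ttn-high CAB44 and the highest CAB239. WT livers ran from 0.0657 to 0.673 CPM, on 1 to 11 reads. Every Cyp1a2_CA animal lay above every Gls2_CA animal and every WT liver, and Gls2_CA and WT overlapped. The fitted difference between drivers was 3.56 (SE 0.634), and 3.65 without the Ttn-high libraries, a fold of 12.5. Summed neural markers ran from 88.1 to 321 CPM in Cyp1a2_CA and from 92.7 to 500 CPM in Gls2_CA, where Cdh18 was low; their part in the Cdh18 levels was not tested.

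Kiss1r encodes the kisspeptin receptor, which signals through Gq. Its level in Gls2_CA animals was 3.15 CPM in GAB18, 2.11 in GAB229, 2.78 in GAB235, 2.21 in GAB242 and 2.88 in GAB294. Cyp1a2_CA animals ran from 0.442 to 2.50 CPM with a median of 0.735, and WT livers from 0.215 to 0.581 CPM with a median of 0.303. The Gls2_CA animals were close together and lay above 8 of the 9 Cyp1a2_CA animals, the remaining animal being the Ttn-high CAB225. The fitted difference was -1.35 (SE 0.36), and -1.67 without the Ttn-high libraries. Kiss1r shares 247 exon bases with R3hdm4 on the other strand, which was at 23.4 CPM in WT, 11.8 in Cyp1a2_CA and 12.9 in Gls2_CA; whether counting used strand is not given in the sources used here, so reads in the shared bases cannot be told apart. Between the drivers, without the Ttn-high libraries, R3hdm4 differed by -0.11, the same direction as Kiss1r. Its part in the Kiss1r levels was not tested.

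Scube3 encodes a secreted CUB and EGF-domain glycoprotein known as a ligand or co-receptor in TGF-beta, BMP and Hedgehog signalling. Among Gls2_CA animals it was at 18.5 CPM in GAB18, 40.2 in GAB229, 4.20 in GAB235, 3.98 in GAB242 and 0.656 in GAB294. Cyp1a2_CA animals ran from 0.106 to 11.8 CPM with a median of 0.810, and WT livers from 0.0717 to 0.394 CPM on 1 to 6 reads. Levels were spread widely inside each driver, the SD (16.4 CPM in Gls2_CA, 3.87 CPM in Cyp1a2_CA) exceeding the mean (13.5 and 2.35 CPM). The 2 highest Cyp1a2_CA animals, CAB225 and CAB44 at 11.8 and 5.19 CPM, were both Ttn-high, and leaving out the Ttn-high libraries moved the fitted difference from -2.48 (SE 1.05) to -4.73 (SE 0.872). Single animals moved it too, to -3.49 without CAB225 and to -1.50 without GAB229. GAB294 lay inside the Cyp1a2_CA range under either choice.

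Ehbp1l1 encodes an EHBP1-family protein that binds Rab8 and Rab10 and takes part in apical membrane traffic. The Gls2_CA values were 54.6 CPM in GAB18, 71.7 in GAB229, 22.6 in GAB235, 61.1 in GAB242 and 57.1 in GAB294. In Cyp1a2_CA it ran from 12.7 to 36.7 CPM with a median of 27.8, and WT livers from 6.09 to 7.4 CPM with a median of 6.71. GAB235 lay inside the Cyp1a2_CA range and the other Gls2_CA animals above it. The fitted difference was -0.98 (SE 0.25), and -1.21 without the Ttn-high libraries, a fold of 2.32.

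The 4 Ttn-high libraries took no part in choosing the genes, so they are the tumours in which the pattern can be looked at apart from the choice, though without a test: 3 come from the Cyp1a2 driver and 1 from the Gls2 driver. GAB235-S, the Gls2_CA library, lay on the side that the choice gives when set against CAB44-L and CAB225-L for 4 of the 8 genes: above both for Dnah1 (2.44 CPM against 0.565 and 1.13), Ralgps2 (492 against 182 and 346) and Kiss1r (2.80 against 0.98 and 2.54), and below both for Cdh18 (0.338 against 1.34 and 3.83). For Rragd, Scube3 and Ehbp1l1 it lay below both, the opposite side, and for Ttc41 it lay between them. Distances were also taken to the medians of the libraries used in the choice, where animals with several libraries weigh more. By that measure CAB225-L was nearer Cyp1a2_CA for 6 of 8 genes, CAB44-L for 5 of 8 and GAB235-S was nearer Gls2_CA for 4 of 8. CB6-L, from the Cyp1a2 driver with no floxed Arid2 allele named in its genotype, was nearer Gls2_CA for 5 of 8. For Dnah1, Rragd, Cdh18, Kiss1r and Scube3 it stood beyond every Cyp1a2_CA animal on the Gls2_CA side, with 84.0 CPM of Scube3 and 9.36 CPM of Dnah1. CB6-L also had 515 CPM of hepatocyte markers, lower than every other animal, and the part of that difference and of its Ttn in these levels was not tested.

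Titles end in S, M or L, which the labels do not explain, and the letters were unequal between drivers: 6 of 10 Cyp1a2_CA libraries were L and 5 of 9 Gls2_CA libraries were M. Within each letter, without the Ttn-high libraries, the direction of the means was as in the choice for 8 of 8 genes in L (4 libraries against 1), 8 of 8 in M (2 against 5) and 7 of 8 in S (2 against 2), the exception being Scube3 in S at 0.19. These libraries are the same ones that chose the genes.

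Tumours with the same animal number differed from each other by as much as the drivers did for some of the genes. The driver folds given here are without the Ttn-high libraries. Rragd ran from 0.993 to 9.52 CPM within GAB294 (9.59-fold, drivers 8.27-fold) and Kiss1r from 0.166 to 1.26 CPM within CAB28 (7.6-fold, drivers 3.19-fold). Ehbp1l1 ran from 30 to 109 CPM within GAB242 (3.62-fold, drivers 2.32-fold). For Dnah1 and Scube3 the drivers differed by more than these libraries did. Dnah1 ran from 6.31 to 39.4 CPM over the 3 libraries of GAB242 (6.24-fold, drivers 11.2-fold). Its spread over the 4 Gls2_CA animals without high Ttn was 2.64-fold, on values that sum 3 libraries each for GAB242 and GAB294. Scube3 ran from 1.19 to 9.39 CPM within GAB242 (7.92-fold, drivers 26.6-fold). Ralgps2 varied less, by 1.16-fold in CAB28 to 1.64-fold in GAB242, but its difference between drivers was also small, 1.83-fold. Ttc41 ran from 34.9 to 35.9 CPM in CAB28 but from 48.2 to 110 CPM in GAB242. That was a 2.29-fold spread beside its 2.11-fold difference between drivers. Cdh18 was at 0 in GAB294-M1 and GAB242-S, and its highest library from these 2 animals was at 1.09 CPM. The low libraries of GAB294 for Rragd lay inside the Cyp1a2_CA range, so the animal's sum is set mainly by GAB294-M2 at 9.52 CPM.

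**Figure D3:**
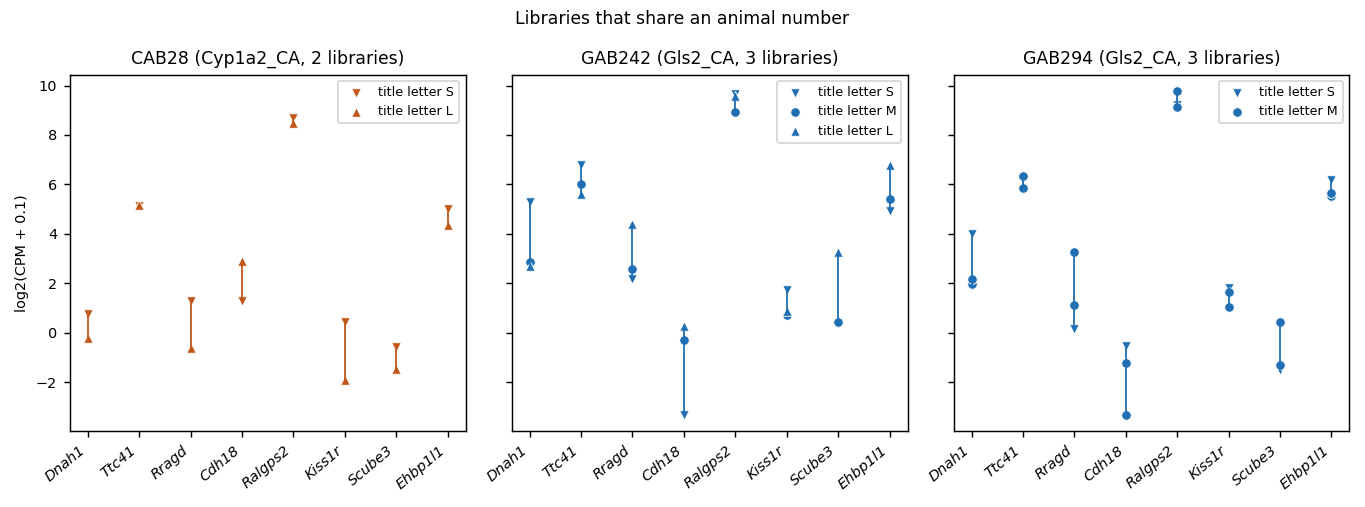
Level of each candidate gene, as log2(CPM + 0.1), in the libraries that share an animal number: CAB28 (2 libraries), GAB242 (3) and GAB294 (3); marker shapes give the title letter and lines join the libraries of an animal. Ralgps2 libraries of an animal lie within 1.64-fold of each other, whereas Dnah1 in GAB242 spans 6.31 to 39.4 CPM and Rragd in GAB294 spans 0.993 to 9.52 CPM.

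The candidate genes did not rise and fall as a block inside a driver. Over the 11 animals without high Ttn, after each driver's mean was taken out, 12 of 28 pairs had a positive Spearman correlation of log2 CPM, with a median rho of -0.05. The pairs ran from -0.89 for Rragd with Kiss1r to 0.61 for Dnah1 with Cdh18, and these values describe 11 animals whose libraries, per the labels, shared a flow cell. Among 9883 other genes at 5 CPM or more, the closest partner of each gene over the same 11 animals was Ahnak for Dnah1 (rho 0.93), Gm35169 for Ttc41 (0.96), Cpne8 for Rragd (0.94) and Fam135a for Cdh18 (0.92). It was Lbr for Ralgps2 (0.93), Dld for Kiss1r (0.97), Myh11 for Scube3 (0.93) and Cyp4a12a for Ehbp1l1 (0.95). With 11 animals and 9883 genes a rho of this size is no finding in itself.

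**Figure D4:**
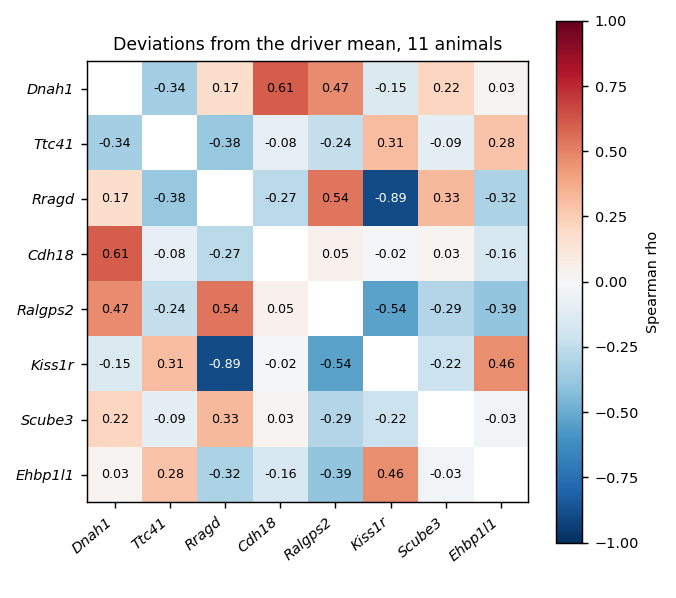
Spearman rho between each pair of candidate genes over 11 animals without high Ttn, as deviations of log2 CPM from the driver mean; the colour scale runs from -1 to 1. Both signs occur, with 12 of 28 pairs above 0, from -0.89 (Rragd with Kiss1r) to 0.61 (Dnah1 with Cdh18).

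Against WT on the counts as deposited, 7 of 8 candidate genes were higher in Cyp1a2_CA and 7 of 7 tested were higher in Gls2_CA, beside 38.3% of 16841 and 39.2% of 14976 genes called higher (edgeR quasi-likelihood test, adjusted p under 0.05) and 32.7% and 34% called lower. With the offset for transcript number the counts were 2 of 8 in Cyp1a2_CA, beside 17.7% called higher and 20.6% lower, and 7 of 7 in Gls2_CA, beside 19.4% and 21.6%. In Cyp1a2_CA 2 of 8 is near that background, and the genes called under both fits were Cdh18 and Ralgps2. Cdh18 was picked for being high in these same Cyp1a2_CA animals, so its call there is not independent of the choice. Because 7 of the 8 were picked for being high in these same Gls2_CA animals, their count over WT there is not independent of the choice, and the 2 comparisons share the WT livers. With the 2 drivers averaged, in which the values that led to the choice still enter, 7 of 8 were higher as deposited, beside 38% called higher and 32.2% lower, and 6 of 8 with the offset, beside 17% and 22.9%.

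In both of these fits the largest folds over WT were those of Scube3 and Dnah1 in Gls2_CA. Scube3 was at a log2 fold change of 5.80 (SE 0.976, adjusted p = 0.00021) as deposited and 5.05 (adjusted p = 0.0017) with the offset, and Dnah1 at 4.95 (SE 0.66, adjusted p = 3.2e-05) and 4.49 (adjusted p = 0.00028). The order depended on the fit and on 1 animal: Scube3 was at 4.83 without GAB229 and at 3.83 under limma-voom, where Dnah1 was at 5.59, Ralgps2 at 4.73 and Ttc41 at 4.19. In Cyp1a2_CA the same genes were at 3.36 (adjusted p = 0.0094) and 1.64 (adjusted p = 0.025) as deposited, but at 2.42 (adjusted p = 0.056) and 1.17 (adjusted p = 0.14) with the offset, and Scube3 there was at 2.33 as deposited without CAB225. Rragd, with 2 transcripts, was higher in Gls2_CA under both fits (2.21, adjusted p = 0.0023, and 2.68, adjusted p = 0.0019) and near WT in Cyp1a2_CA under both (-0.27, adjusted p = 0.55, and 0.08, adjusted p = 0.88). Cdh18 in Cyp1a2_CA was at 3.98 (SE 0.649, adjusted p = 5e-05) and 2.68 (SE 0.658, adjusted p = 0.0047). In Gls2_CA its counts were too low to be tested, and without the filter on low counts it was at 0.54 (SE 0.571, adjusted p = 0.45).

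For the genes with many transcripts the offset took away most of the fold. Ttc41 (24 transcripts) went from 3.15 to 0.29 in Cyp1a2_CA (adjusted p = 3.6e-10 and 0.19) and from 4.03 to 1.18 in Gls2_CA (adjusted p = 1.9e-08 and 0.0039). Ralgps2 (23 transcripts) went from 3.81 to 1.05 in Cyp1a2_CA (adjusted p = 9.6e-11 and 0.002) and from 4.69 to 1.85 in Gls2_CA (adjusted p = 1.3e-08 and 5.4e-05). Ehbp1l1 (14 transcripts) went from 1.91 to -0.21 in Cyp1a2_CA (adjusted p = 1.8e-07 and 0.40), a change of sign, and from 2.88 to 0.77 in Gls2_CA (adjusted p = 4.3e-07 and 0.038). Kiss1r (7 transcripts) went from 1.51 to 0.25 in Cyp1a2_CA (adjusted p = 0.0042 and 0.62) and from 2.85 to 1.63 in Gls2_CA (adjusted p = 2.7e-06 and 0.00078). For Ttc41, Ehbp1l1 and Kiss1r a rise in Cyp1a2_CA over WT was thus present only in the fit on the counts as deposited, of these 2 fits.

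**Figure D5:**
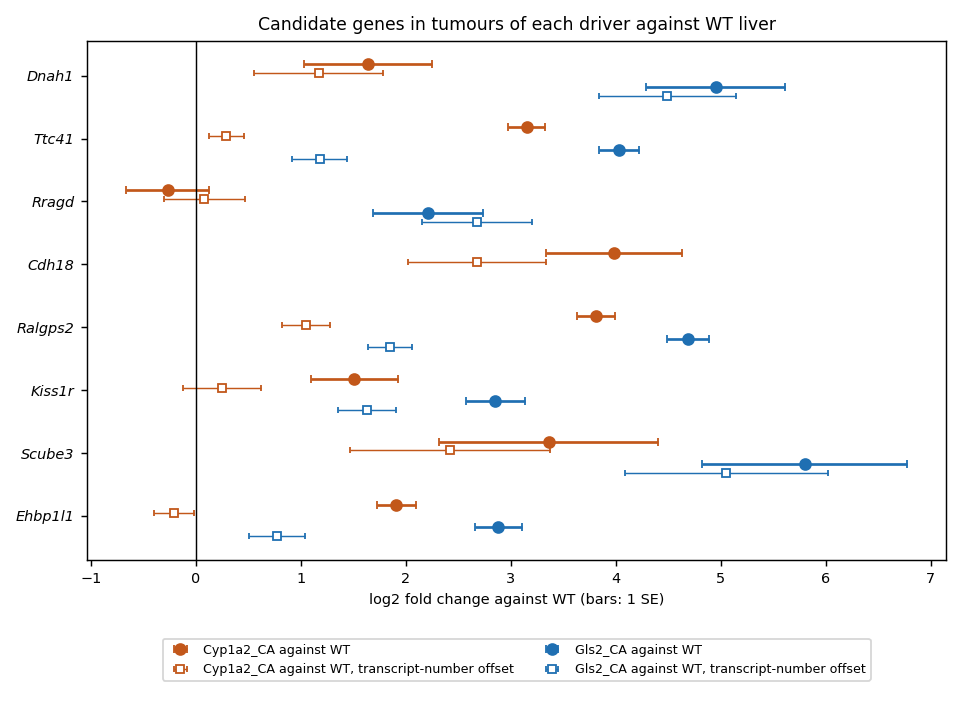
Log2 fold change over WT of each candidate gene with bars of 1 SE, for Cyp1a2_CA (orange) and Gls2_CA (blue), on the counts as deposited (filled circles) and with the transcript-number offset (hollow squares). Each pair of markers shows the shift, from 3.15 to 0.29 for Ttc41 in Cyp1a2_CA and from 4.95 to 4.49 for Dnah1 in Gls2_CA; Cdh18 has no Gls2_CA marker because its counts were too low to be tested.

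Related genes were read from lists of each gene's family or pathway, as deposited and with the offset, beside a median log2 fold change of 0.17 (Cyp1a2_CA) and 0.14 (Gls2_CA) over all genes tested as deposited. The shares of all genes called against which these counts are read are those above: 38.3% and 39.2% higher as deposited, and 17.7% and 19.4% with the offset. Except for the motile cilium genes, each of these lists includes its candidate gene, so the counts contain genes chosen from these same tumours. Of the axonemal dynein heavy chains, to which Dnah1 belongs, 7 of 8 tested were higher in Cyp1a2_CA and 6 of 6 in Gls2_CA as deposited, and 2 and 4 with the offset, with none called lower. Dnah8, an outer-arm heavy chain, was at 4.07 in Cyp1a2_CA and 4.43 in Gls2_CA with the offset, and Dnah11 at 2.91 and 2.26. The driver differences of the heavy chains without the Ttn-high libraries ran from -3.48 for Dnah1, -2.89 for Dnah5 and -2.33 for Dnah12 to 0.51 for Dnah8 and 0.68 for Dnah11, so Dnah1 was not alone in its direction. Dnah5 and Dnah12 were low, however, averaging 2.14 ± 2.97 and 0.547 ± 0.694 CPM (SD) over all Gls2_CA animals. Of the other motile cilium genes 5 of 11 were higher and 1 lower in Cyp1a2_CA, and 5 of 7 higher and 1 lower in Gls2_CA, as deposited, and 2 higher and 0 lower in each with the offset: Rfx3, a ciliogenic transcription factor, at 0.83 and 0.80, and Cfap44 at 4.31 and 4.44. Of the Rag, Ragulator, FLCN and MiT/TFE genes around Rragd, 11 of 21 were higher and 8 lower in Cyp1a2_CA and 10 and 8 in Gls2_CA as deposited, against 1 higher and 6 lower, and 1 and 5, with the offset. The 1 called higher in Gls2_CA with the offset was Rragd itself, at 2.68. Rraga, the gene of RagA, which pairs with RagC or RagD, was at -0.60 (adjusted p = 0.0038) in Cyp1a2_CA and -0.83 (adjusted p = 0.00085) in Gls2_CA with the offset. Among the Ral genes around Ralgps2, 10 of 14 were higher and 2 lower in each driver as deposited. With the offset 2 were higher and 1 lower in Cyp1a2_CA, near the background, and 4 and 1 in Gls2_CA; Ralgps1, its paralogue, was at 0.33 (adjusted p = 0.12) and 0.32 (adjusted p = 0.068) with the offset.

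Of the type II cadherins and catenin partners 4 of 10 were higher in Cyp1a2_CA and 2 of 6 in Gls2_CA as deposited, and 3 and 2 with the offset, with none called lower. Cdh11, a mesenchymal cadherin, averaged 49.5 ± 97.6 CPM in Cyp1a2_CA and 70.1 ± 156 CPM in Gls2_CA (SD, n = 9 and 5), the SD lying above the mean in both. Of the kisspeptin and Gq genes around Kiss1r, 10 of 13 were higher and 2 lower in Cyp1a2_CA and 9 of 12 higher and 3 lower in Gls2_CA as deposited. With the offset 3 were higher in each, beside 2 and 3 lower; Kiss1, the ligand's gene, averaged 1.51 CPM in Cyp1a2_CA and 1.28 CPM in Gls2_CA. Of the SCUBE, Hedgehog and TGF-beta receptor genes around Scube3, 9 of 16 were higher and 3 lower in Cyp1a2_CA and 7 of 15 higher and 2 lower in Gls2_CA as deposited, against 6 and 0, and 8 and 1, with the offset. Scube1 was at 1.90 (adjusted p = 0.031) and 1.30 (adjusted p = 0.013) and Smo, the Hedgehog signal transducer, at 2.02 (adjusted p = 0.0012) and 1.87 (adjusted p = 8.6e-05) with the offset. Of the EHBP1 and Rab genes around Ehbp1l1, 8 of 16 were higher and 6 lower in each driver as deposited. With the offset 1 was higher and 1 lower in Cyp1a2_CA, and 5 higher and 3 lower in Gls2_CA, and Ehbp1 was at -0.03 (adjusted p = 0.88) and -0.31 (adjusted p = 0.028).

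The zone genes are the setting in which the candidate genes were proposed. Of 14 pericentral genes 8 were higher and 4 lower in each driver as deposited, against 9 and 2, and 10 and 1, with the offset. Axin2, a direct beta-catenin target, was at 3.51 (adjusted p = 5.1e-06) in Cyp1a2_CA and 3.68 (adjusted p = 0.00028) in Gls2_CA with the offset. Of 14 periportal genes, 14 were lower in each driver as deposited and 13 and 12 with the offset, with Arg1, the last enzyme of the urea cycle, at -3.03 and -3.43. The driver differences without the Ttn-high libraries ran from -0.90 (Cyp1a2) to 0.66 (Lgr5) among pericentral genes and from -0.96 (Aldh1b1) to 0.51 (Cyp2f2) among periportal genes. Cyp1a2 is the gene named in the Cyp1a2_CA driver, and the next lowest pericentral gene was Cyp27a1 at -0.34. Ralgps2, at -0.87, lay inside both ranges, but inside the pericentral range only through Cyp1a2. The other candidate genes, which were chosen for their difference, lay outside both ranges. The 2 comparisons share the WT livers.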

How the data were processed

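Whole-number counts per gene were deposited by the authors in a single table, with no normalization; the build was mm10, per the submitters' processing notes. The aligner, counter, strand setting and gene models: not given in the sources used here. RNA came from TRIzol and PureLink extraction and Nugen Ovation libraries, per the labels' protocols. Libraries of the same animal number were summed. Each contrast was fitted across all genes that passed filterByExpr with edgeR 4.0.16 (TMM, robust quasi-likelihood test, Benjamini-Hochberg threshold 0.05) in R 4.3.3; CPM used TMM totals. DESeq2 1.42.0 and limma 3.58.1 served as alternatives, and the fits were tested on simulated data. Exon positions came from GENCODE M21, which matched 26763 of 35976 entries, and transcript numbers and start-site windows from RefSeq GRCm38.p6, with a transcript number for 89.8% of entries. The candidate genes and gene lists were chosen with earlier results of these data known. Named genes were the 8 candidate genes, up to 4 genes per list with the smallest p against WT, and the 3 closest genes to each candidate gene; Col12a1, Dnah5, Dnah12, the zone genes at the ends of a range, neighbours, paralogues and the ligand Kiss1 were named after their values were seen.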

Additional observations from a re-analysis of the deposited data

Results flagged for a closer look

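In 5 of 24 groups of 5, 6 or 9 animals (8 genes in WT, Cyp1a2_CA and Gls2_CA), 1 animal stood apart by Dixon's criterion on CPM. The criterion's nominal rate of about 1 in 20 groups gives no chance rate here. The CPM were not log-transformed, and the genes were chosen from these same tumours. Ttc41 stood at 34.7 CPM in GAB235, below the other Gls2_CA animals, and Ralgps2 at 182.0 CPM in CAB44, below the other Cyp1a2_CA animals. Kiss1r stood at 2.5 CPM and Scube3 at 11.8 CPM in CAB225, above the other Cyp1a2_CA animals. These 4 values belong to animals with high Ttn, whose libraries were left out when the genes were chosen. That choice favours genes in which the remaining animals lie close together, so a left-out animal standing apart is favoured too. Cdh18 stood at 18.6 CPM in CAB239, which does not have high Ttn.

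The single Cyp1a2_C library, which enters no comparison, lay above every WT liver for 7 of the 8 genes. Its levels were 9.36 CPM for Dnah1, 28.7 for Ttc41, 4.37 for Rragd, 187.0 for Ralgps2, 3.44 for Kiss1r, 84.0 for Scube3 and 33.7 for Ehbp1l1. For this tumour library, too, a difference in counting from the WT columns and a difference in expression cannot be told apart.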

How the results depend on the processing

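The candidate genes' differences between drivers kept their sign under all 184 alternative values. The genes were chosen on this contrast in most of these same animals, so a kept sign follows largely from the choice and is no support. Scube3 moved most, to -4.73 without the Ttn-high libraries and to -1.50 without GAB229. Of 645 alternative values for single genes over WT, 622 kept their direction and side of the threshold, 13 lost the call, 8 gained it and 2 reversed: Ehbp1l1 in Cyp1a2_CA, at -0.21 with the transcript-number offset and -0.34 with tumour counts divided by transcript number, both chosen after seeing the data. The count of genes called higher in Cyp1a2_CA, 7, went to 4 with a stricter filter at 1 CPM. Under that filter Dnah1, Kiss1r and Scube3 were not tested. The count went to 2 with the offset and to 2 with divided counts, under which 5 were tested. Leaving out single animals gave 6 to 7 in Cyp1a2_CA (6 without WT_Cre-BL6, where Dnah1 was at 1.53 with adjusted p = 0.055), 7 to 7 in Gls2_CA and 7 to 8 with the drivers averaged. Scube3 in Cyp1a2_CA lost its call under limma-voom (1.30, adjusted p = 0.056), and Dnah1 (0.28) and Scube3 (1.86) lost theirs with an offset for exon length and GC content. Rragd with the drivers averaged gained a call under DESeq2 (0.97), limma-voom (0.83) and without the Ttn-high libraries (0.94). With every animal, edgeR called 0 genes between drivers, also without each animal in turn, DESeq2 20, limma-voom 10 and edgeR with every library as a replicate 6. The count at an unadjusted p under 0.05 was 554, and 1339 without the filter, 1270 with every library, 2118 under limma-voom, 1018 without the Ttn-high libraries and 402 to 1347 without single animals (402 without GAB229, 1347 without GAB235). WT libraries hold under 12 reads for Dnah1, Cdh18, Kiss1r and Scube3, so depth limits those folds. No paired analysis was possible because the replicate numbers were given in accession order and titles carry no number shared between groups.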
